A study of Homo sapiens with 3 samples.

Results

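The transcripts of 42 DNA repair and checkpoint genes were measured in the human line TK-10, derived from a renal cell carcinoma. The genes were chosen by name, for their roles in repair and checkpoint signalling, with earlier results of these data known. They were matched to 63 probes by transcript accession, among 22439 genes whose probes could be given a symbol. Total RNA of 3 cultures was labelled with Cy3 and hybridised to 3 single-colour arrays, 1 per condition. The control cells received 0.1% DMSO, another culture was labelled as given cordyceps at 750 μg/ml, and another was given sunitinib at 10 μM, each for 48 h. The study describes the pure compound cordycepin where the sample label names cordyceps, and at another dose, so the array is called the cordyceps array here. The study's text does not mention sunitinib. Sunitinib is a tyrosine kinase inhibitor used against renal cell carcinoma. All 3 cultures shared a medium with serum, nicotinamide, troglitazone and zinc sulfate, and all came from the same established line. With 1 array per condition differences had no replicate check and no test, and the spread between cultures is unknown.

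Homologous recombination repairs a DNA double-strand break by copying the sister chromatid. The broken end is first trimmed to a single strand, BRCA2 and its partners prepare that strand to invade the sister chromatid, and helicases and nucleases resolve the joined molecules. The Fanconi anaemia proteins bring the same machinery to interstrand crosslinks, and the kinases ATM and ATR hold the cell cycle while repair proceeds. Sister chromatids exist only after replication, and many of these genes are known to be transcribed mainly in cells that are replicating DNA or preparing for mitosis. In RNA from a whole culture, fewer cells that express a gene and less RNA per cell cannot be told apart.

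The arrays differed in brightness. The 75th percentile of the processed signal (fluorescence after background subtraction, in arbitrary units) was 165 on the control array, 138 on the cordyceps array and 78.2 on the sunitinib array, and 37.8% to 45.5% of the probes were well above background. Ratios below are therefore log2 ratios of a treated array to the control array after each array was divided by its 75th percentile. This shift was -0.26 for the cordyceps array and -1.07 for the sunitinib array on the log2 scale. Renal epithelial markers were detected on every array for 8 of 9 genes (CUBN was not), with summed signals of 35488 to 64336. CD3E of the leukocyte list, PECAM1 and KDR of the endothelial list and COL1A2 of the fibroblast list were not well above background on any array. Other markers of these lists were detected on the control array, 3 of 5 for leukocytes, 3 of 5 for endothelium and 4 of 5 for fibroblasts. Several of them were lower on the sunitinib array, with signals on the control, cordyceps and sunitinib arrays of 5308, 1069 and 385 for COL1A1, 707, 169 and 31.2 for DCN and 693, 374 and 116 for CD14. LUM was at least 9.92-fold lower with sunitinib, and TIE1 and VWF were at least 2.60-fold and 2.51-fold lower. Others were higher with sunitinib after scaling, with log2 ratios of 2.39 for PTPRC, 0.66 for PDGFRB and 0.23 for CDH5. PTPRC was dim on the control array, at 18.4, and gave 45.7 on the sunitinib array. The summed signals, all given before scaling, ran from 199 to 813 for the leukocyte list and from 106 to 315 for the endothelial list. Both were highest on the control array, which was also the brightest array. The summed signal of the fibroblast list was 7111, 1856 and 966 on the control, cordyceps and sunitinib arrays, and the part of these markers in the results was not tested.

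All 42 genes were well above background on the control array, 41 were on the cordyceps array and 32 on the sunitinib array. On the cordyceps array the genes were shifted upwards by a small amount. Their median log2 ratio was 0.46, against 0.00 for the 14785 genes compared. After scaling, 38 of the 42 were above the control array, where 46.0% of all genes were. Before scaling 25 of the 42 were, and the median log2 ratio of all genes was then -0.24. Only POLQ was more than 2-fold higher (2.99% of all genes were), and none was more than 2-fold lower (2.76% of all genes were). On the sunitinib array the shift ran the other way and was larger for part of the group. The median log2 ratio was -0.50 against 0.00 for 14912 genes, 35 of the 42 were below the control array (48.7% of all genes were), 11 were more than 2-fold lower (6.53% of all genes were) and none was more than 2-fold higher (6.50% of all genes were). On both arrays together, 32 genes were higher with cordyceps and lower with sunitinib. The share of all genes that did so was not counted, so this number has no background to be read against. Both comparisons use the same control array, so a control signal that was off for a gene would move both ratios the same way.

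**Figure D1:**
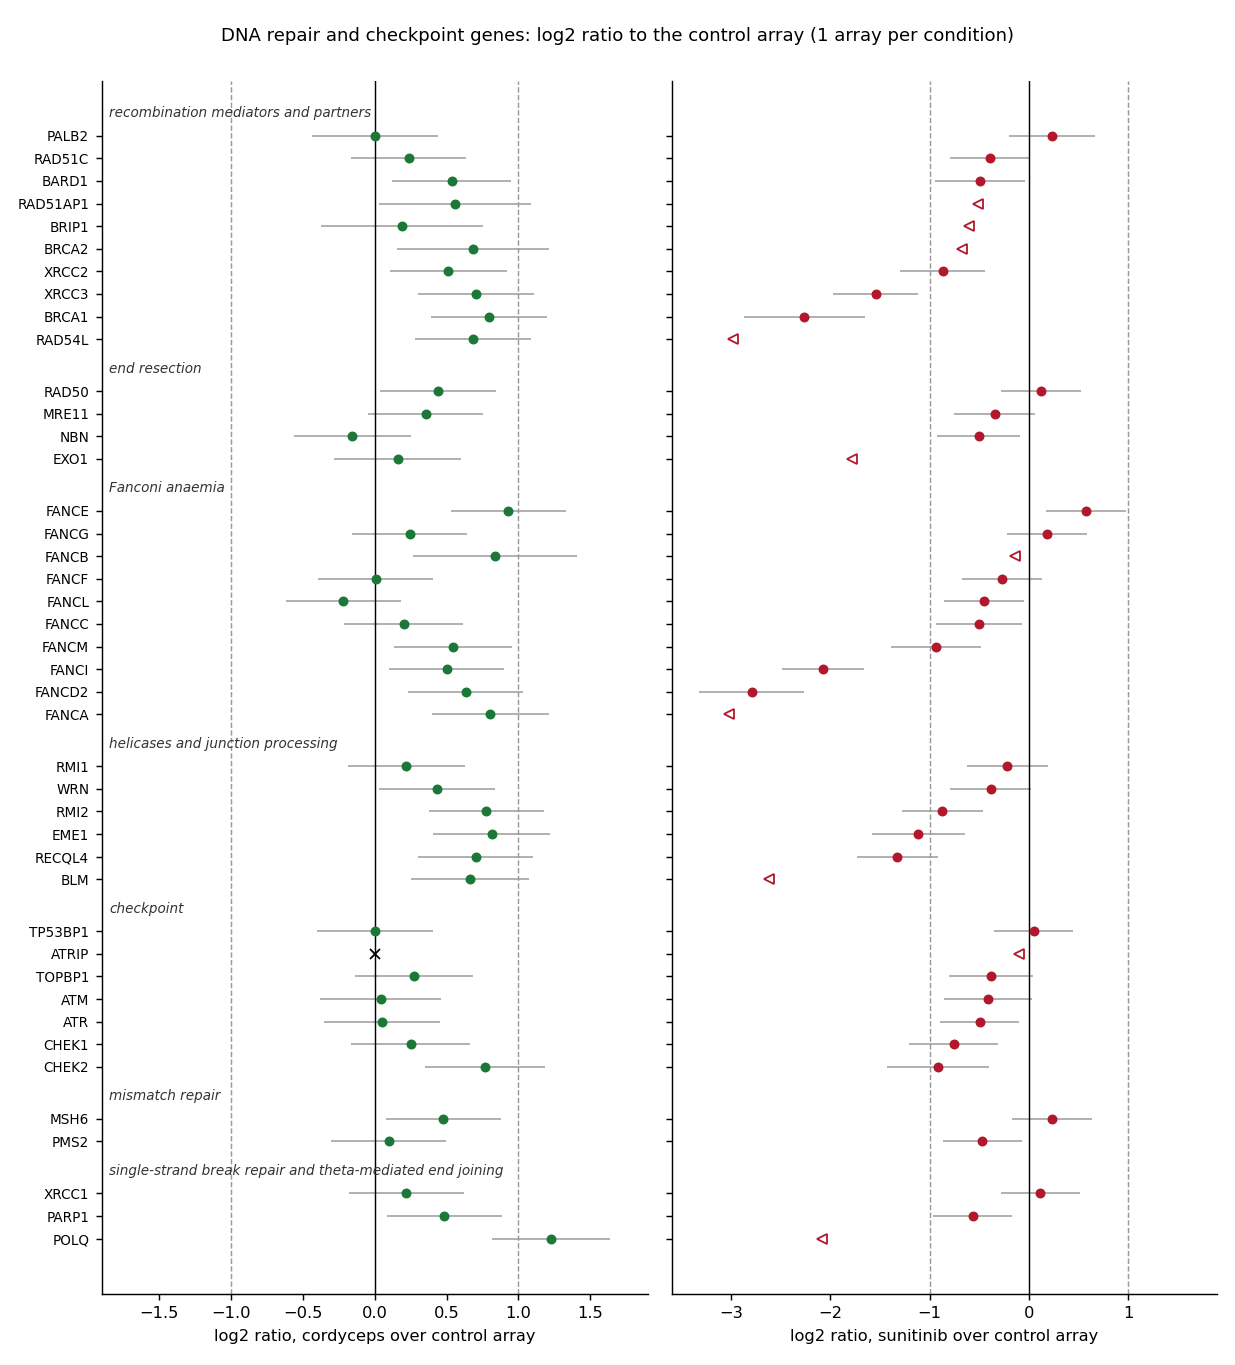
Log2 ratio of each of the 42 genes to the control array, cordyceps on the left and sunitinib on the right, grouped by role, with 1 array per condition. Filled points were measured on both arrays and carry the 95% limit of the scanner software's error, open triangles are bounds for genes not well above background on the sunitinib array, the cross marks ATRIP, which has no ratio, and dashed lines mark 2-fold. The 11 genes left of the lower dashed line with sunitinib all lie above 0 with cordyceps, EXO1 by less than its error. So do 38 of the 42 genes and 46.0% of all genes compared, and the share of all genes that did both was not counted. The triangle of BLM is a point estimate.

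The error attached to each ratio is the scanner software's estimate for both signals, combined on the log2 scale. It covers the measurement and not the culture. Among genes measured on both arrays it was 0.20 to 0.29 with cordyceps and 0.20 to 0.31 with sunitinib, with a median of 0.21 in each. By this error 23 of the 41 genes with a cordyceps ratio were higher by more than the 95% limit and none was lower (15.0% of all genes measured on both arrays were higher by that rule). With sunitinib 18 of 32 were lower by more than the limit (21.9% of all genes were), and FANCE was higher. Ranked among all genes compared, 27 of the 42 were in the upper quartile with cordyceps and 0 in the lower, while 30 were in the lower quartile with sunitinib and 1, FANCE, in the upper.

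**Figure D2:**
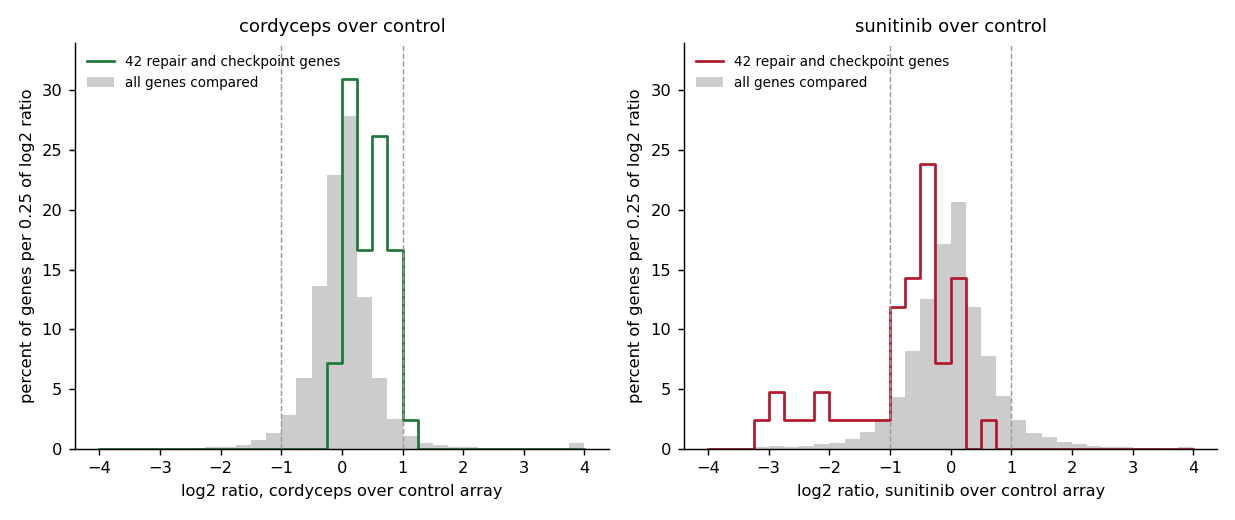
Share of genes per 0.25 of log2 ratio to the control array, for all genes compared (grey bars) and for the 42 repair and checkpoint genes (outline). Genes compared without a ratio, such as ATRIP with cordyceps, are placed at 0, and the first and last bars also hold the genes beyond the axis. The outline sits right of the grey bars with cordyceps. With sunitinib it sits left of them, with a tail that runs on without a gap beyond 2-fold lower.

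Promoter windows from RefSeq (GRCh38.p14, 250 bases before the start site and 50 after) were at hand for 37 of the 42 genes, and those of FANCI, NBN, RECQL4, RMI2 and WRN were not. They were searched on both strands for an E2F motif, spelled TTTCCCGC, TTTCGCGC, TTTGCCGC or TTTGGCGC. The E2F proteins are transcription factors that switch on genes for DNA synthesis. A match was present in 10 of the 51 windows of these genes (19.6%), and in 3.31% of all 35116 windows. The CCAAT box, spelled CCAAT, was present in 51.0% of their windows and 34.6% of all windows. The cell cycle homology region, spelled TTTGAA or TTCGAA, was present in 9.80% and 16.4%. None of these motifs contains another. The base composition of the windows was not taken into account. The windows of 9 genes held 10 separate E2F matches, which are shown with 11 bases on either side because, of the 3 motifs, E2F was the one whose share differed most in relative terms. Capitals mark the match, and each line reads 5′ to 3′ along the strand of the gene.
EXO1, chr1:241848197-241848226, + strand: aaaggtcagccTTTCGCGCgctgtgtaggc
FANCA, chr16:89816801-89816830, - strand: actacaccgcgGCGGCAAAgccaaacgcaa
FANCC, chr9:95317863-95317892, - strand: ccggggcttccGCGCGAAAccgggaacact
FANCC, chr9:95317737-95317766, - strand: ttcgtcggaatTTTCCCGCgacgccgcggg
FANCD2, chr3:10026424-10026453, + strand: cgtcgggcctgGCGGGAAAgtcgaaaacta
MSH6, chr2:47783137-47783166, + strand: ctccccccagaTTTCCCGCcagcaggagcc
PMS2, chr7:6009131-6009160, - strand: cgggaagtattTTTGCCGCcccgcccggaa
RMI1, chr9:83980762-83980791, + strand: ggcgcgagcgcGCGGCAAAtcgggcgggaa
TOPBP1, chr3:133661930-133661959, - strand: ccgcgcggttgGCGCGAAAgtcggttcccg
XRCC2, chr7:152676102-152676131, - strand: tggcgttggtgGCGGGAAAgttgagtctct

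The match began 172 bases before the start site in FANCA, 172 and 46 bases before it in FANCC, 100 bases before it in PMS2 and 32 bases before it in RMI1. It lay at the start site in FANCD2 and TOPBP1, beginning 2 and 7 bases before it, and in EXO1, MSH6 and XRCC2 it lay in transcribed sequence. Of these 9 genes, EXO1, FANCA and FANCD2 were among those more than 2-fold lower with sunitinib. A match was present in 3 of the 9 lower genes that had a window and in 6 of the other 28, so it was not confined to the lower genes. MSH6, with a match close to its start site, was above the control array on both treated arrays. With sunitinib it was below the control array when arrays were scaled to the median of all probes or left unscaled.

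The mediators and partners of recombination comprised 10 genes. Their median log2 ratio was 0.55 with cordyceps, with 10 of 10 above the control array, and -0.64 with sunitinib, with 9 of 10 below it. BRCA1, which directs broken ends towards recombination and is a ubiquitin ligase together with BARD1, had a processed signal of 273 on the control array, 397 on the cordyceps array and 27.0 on the sunitinib array. The sunitinib array was the low one, and the cordyceps array was above the control array. The log2 ratio was 0.80 ± 0.21 with cordyceps and -2.26 ± 0.31 with sunitinib, the latter below the ratio of 99.0% of genes. When the background was corrected by normexp, which adds 50 to every signal and so limits how low a dim signal can fall, the sunitinib ratio was -1.20. BARD1 itself moved far less with sunitinib. Its signals were 166, 201 and 56.1, which gave ratios of 0.54 ± 0.21 and -0.49 ± 0.23.

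RAD54L, a translocase that promotes invasion of the sister chromatid, gave signals of 306, 412 and 6.39, the last not well above background. Its reduction with sunitinib was therefore a bound, at least 7.92-fold on the processed signal, and its log2 ratio with the normexp correction was -1.57. XRCC3, XRCC2 and RAD51C are related proteins that assist the invading strand. The XRCC3 signals were 557, 761 and 90.9, with log2 ratios of 0.70 ± 0.20 and -1.54 ± 0.22, the latter a 2.91-fold reduction. The XRCC2 signals were 282, 337 and 73.6, and the ratio with sunitinib, -0.87 ± 0.22, was below the control array but within 2-fold. RAD51C showed the smallest differences of these 3, at 585, 577 and 212, with ratios of 0.24 ± 0.21 and -0.39 ± 0.21, neither past the 95% limit.

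BRCA2, the central mediator of recombination, was dim throughout. Its signals were 61.6 and 82.7 on the control and cordyceps arrays and 4.75, not well above background, on the sunitinib array, so that the log2 ratio with sunitinib was only bounded, at -0.67 or lower. The helicase BRIP1 (58.8, 56.3 and 4.18) and RAD51AP1, which stimulates strand invasion (55.2, 68.1 and 4.02), were likewise lost from detection with sunitinib, with reductions of at least 1.52-fold and 1.43-fold. For these dim genes the array could not resolve a larger fall. PALB2, which bridges BRCA1 and BRCA2, stood apart from its partners. Its signals of 130, 109 and 72.4 gave log2 ratios of 0.00 ± 0.22 and 0.23 ± 0.22. In the main setting it was the only gene of this role not below the control array with sunitinib. PALB2 was also below it when arrays were scaled to the median of all probes or left unscaled.

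End resection was represented by the 3 subunits of the MRN complex, which senses and trims broken ends, and by the exonuclease EXO1. Signals of MRE11 were 441, 472 and 165, with log2 ratios of 0.35 ± 0.21 and -0.34 ± 0.21. Those of RAD50 were 469, 532 and 243, with ratios of 0.44 ± 0.21 and 0.12 ± 0.21. Those of NBN were 286, 215 and 95.8, with ratios of -0.16 ± 0.21 and -0.50 ± 0.21. The subunits of this stable complex thus stayed within 2-fold of the control array on both treated arrays. EXO1 did not. It gave 133 and 124 on the control and cordyceps arrays and 4.74, not well above background, on the sunitinib array, a reduction of at least 3.44-fold, while its cordyceps ratio was 0.16 ± 0.23. With the normexp correction its sunitinib ratio was -0.66 and did not pass 2-fold.

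The Fanconi anaemia pathway comprised 10 genes, 9 above the control array with cordyceps and 8 below it with sunitinib, with medians of 0.52 and -0.48. FANCD2 and FANCI form the clamp that is ubiquitinated at a crosslink. FANCD2 gave signals of 446, 579 and 30.5, so the sunitinib array was far below the others. Its log2 ratio with sunitinib was -2.79 ± 0.27, a 6.93-fold reduction and the lowest of the genes measured on both arrays, and with cordyceps it was 0.63 ± 0.20. The normexp correction gave -1.93 with sunitinib. FANCI gave 911, 1080.0 and 103, with ratios of 0.50 ± 0.20 and -2.08 ± 0.21, a 4.22-fold reduction with sunitinib. Both proteins of the clamp thus had low transcripts on the same array. UBE2T, the ubiquitin-conjugating enzyme that acts on this clamp and is not among the 42 genes, gave 1234, 1838 and 105, with a sunitinib ratio of -2.48.

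The ligase that ubiquitinates the clamp is a core complex of many subunits, and these did not move alike. FANCA, a scaffold of the complex, gave 314 and 459 on the control and cordyceps arrays and 16.2, not well above background, on the sunitinib array. Its reduction was at least 8.12-fold on the processed signal, the largest bound of the group, and its log2 ratio with the normexp correction was -1.49. Its cordyceps ratio was 0.81 ± 0.21. FANCB, another core subunit, was dim at 42.7 and 63.9 and undetected with sunitinib at 4.81, where the bound was 1.11-fold. FANCL, the catalytic ligase subunit, gave 1762, 1266 and 613 and was below the control array in both comparisons, at -0.22 ± 0.20 and -0.45 ± 0.20. FANCE, which connects the core complex to the clamp, went the opposite way. With signals of 435, 694 and 308 it had log2 ratios of 0.93 ± 0.20 and 0.58 ± 0.21 and was the only gene past the 95% limit upwards with sunitinib, although its signal before scaling was below that of the control array.

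The remaining core subunits stayed within 2-fold of the control array. FANCG gave 1124, 1114 and 607 and ratios of 0.24 ± 0.20 and 0.18 ± 0.20. FANCC gave 260, 251 and 87.2 and ratios of 0.20 ± 0.21 and -0.50 ± 0.22, and its cordyceps spot lay in an unusually bright area of that array. FANCF, an adaptor of the complex, had ratios of 0.01 ± 0.20 and -0.27 ± 0.20. FANCM, the translocase that recognises the stalled fork, was the gene that came closest to the 2-fold limit with sunitinib without passing it, at signals of 227, 278 and 56.3 and a ratio of -0.94 ± 0.23.

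Helicases and junction processing showed the lowest median with sunitinib, -0.99, and the highest with cordyceps, 0.68, of the 7 roles. BLM, RMI1 and RMI2 act together with a topoisomerase to dissolve joined molecules. BLM, the helicase mutated in Bloom syndrome, gave 254, 336 and 19.6, the last not well above background. That signal was still above the lowest detected signal of the sunitinib array, 18.3, and was kept. The reduction of 6.13-fold, a log2 ratio of -2.62 ± 0.38, is therefore a point estimate and not a lower limit. With the normexp correction the ratio was -1.13. RMI2 gave 907, 1300.3 and 235, with log2 ratios of 0.78 ± 0.20 and -0.87 ± 0.21. RMI1 gave 361, 352 and 148, with ratios of 0.22 ± 0.21 and -0.22 ± 0.21. The 3 members of the complex thus differed in the size of their reduction, and only BLM passed 2-fold.

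RECQL4, a helicase that also acts when replication begins, gave 1217, 1657 and 231, with a sunitinib ratio of -1.32 ± 0.21. Its 3 detected probes were not alike, with sunitinib ratios from -1.48 to 0.19. EME1, a subunit of the MUS81 nuclease that cuts joined molecules, gave 230, 339 and 50.6, with ratios of 0.81 ± 0.21 and -1.11 ± 0.24. EME1 and RECQL4 were the measured genes that passed the 2-fold limit by the least. With the normexp correction EME1 had a ratio of -0.61 and no longer passed it. WRN, the helicase mutated in Werner syndrome, gave 475, 537 and 173 and ratios of 0.43 ± 0.21 and -0.38 ± 0.21.

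By the brightest probe of each gene, checkpoint genes had the median closest to 0 with cordyceps of the 7 roles, 0.05, and none of the 7 was more than 2-fold apart in either comparison. The apical kinases ATM and ATR gave cordyceps ratios of 0.04 ± 0.21 and 0.05 ± 0.20 and sunitinib ratios of -0.41 ± 0.22 and -0.50 ± 0.20. A further detected probe of each gave 0.37 (ATM) and 0.39 (ATR) with cordyceps, and -0.00 and -0.53 with sunitinib. With cordyceps the probes of a gene thus lay 0.33 (ATM) and 0.34 (ATR) apart. With sunitinib they lay 0.41 and 0.03 apart. Signals of ATM were 209, 180 and 74.4, and those of ATR were 1117, 968 and 376. ATRIP, the partner that brings ATR to single-stranded DNA, was detected on the control array alone (41.3, 35.9 and 8.66). It has no ratio with cordyceps and a reduction of at least 1.07-fold with sunitinib. TOPBP1, the activator of ATR, gave 259, 262 and 94.6 and ratios of 0.27 ± 0.21 and -0.38 ± 0.22.

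The effector kinases had sunitinib ratios below those of the apical ones, by less than their 95% limits. CHEK2, which acts below ATM, gave 168, 239 and 42.3 and log2 ratios of 0.77 ± 0.21 and -0.91 ± 0.26. With sunitinib it fell short of the 2-fold limit by little, and its 3 probes detected on both arrays ran from -1.19 to -0.27. CHEK1, which acts below ATR, gave 195, 194 and 54.7 and ratios of 0.25 ± 0.21 and -0.76 ± 0.23. TP53BP1, which protects broken ends from resection and so opposes BRCA1, gave 554, 464 and 272. Its ratios were -0.00 ± 0.21 and 0.05 ± 0.21, both close to 0.

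In mismatch repair, MSH6, which recognises mispaired bases, gave 1988, 2317 and 1110.1, with ratios of 0.48 ± 0.20 and 0.23 ± 0.20. PMS2, a nuclease of the pathway, gave 2532, 2270.4 and 869, with ratios of 0.10 ± 0.20 and -0.47 ± 0.20. Neither gene was 2-fold apart in either comparison. PMS2 and CHEK2 have near-identical pseudogene copies in the genome, so their probes may also report those transcripts.

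POLQ encodes DNA polymerase theta, which joins broken ends through short stretches of homology and serves cells that lack recombination. It was the highest gene of the group with cordyceps and among the lowest with sunitinib. Its signal was 164 on the control array, 321 on the cordyceps array and 10.2, not well above background, on the sunitinib array. The cordyceps ratio was 1.23 ± 0.21, a 2.34-fold increase exceeded by 1.97% of genes, and the reduction with sunitinib was at least 4.25-fold. With the normexp correction its sunitinib ratio of -0.95 did not pass 2-fold. PARP1, the sensor of single-strand breaks, gave 1840.2, 2157 and 590 and ratios of 0.48 ± 0.20 and -0.57 ± 0.20. Its other detected probe gave -0.03 and -0.13. XRCC1, the scaffold of single-strand break repair, gave 2229, 2172 and 1148 and ratios of 0.22 ± 0.20 and 0.12 ± 0.20.

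Probes of 7 of the genes were printed in 10 spots on each array, which gives the spread of the measurement within an array. The SD of the log2 signal over spots ran from 0.04 to 0.50, with a median of 0.07. BRCA1 spots ran from 255 to 298 on the control array, from 363 to 419 on the cordyceps array and from 21.9 to 30.3 on the sunitinib array. No BRCA1 spot of any array overlapped those of another. FANCA spots on the sunitinib array ran from 7.43 to 26.2, the widest relative spread, and all lay below the lowest control spot. RMI1 spots of the control and cordyceps arrays overlapped. These spots repeat a hybridisation and are not replicates of a condition.

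**Figure D3:**
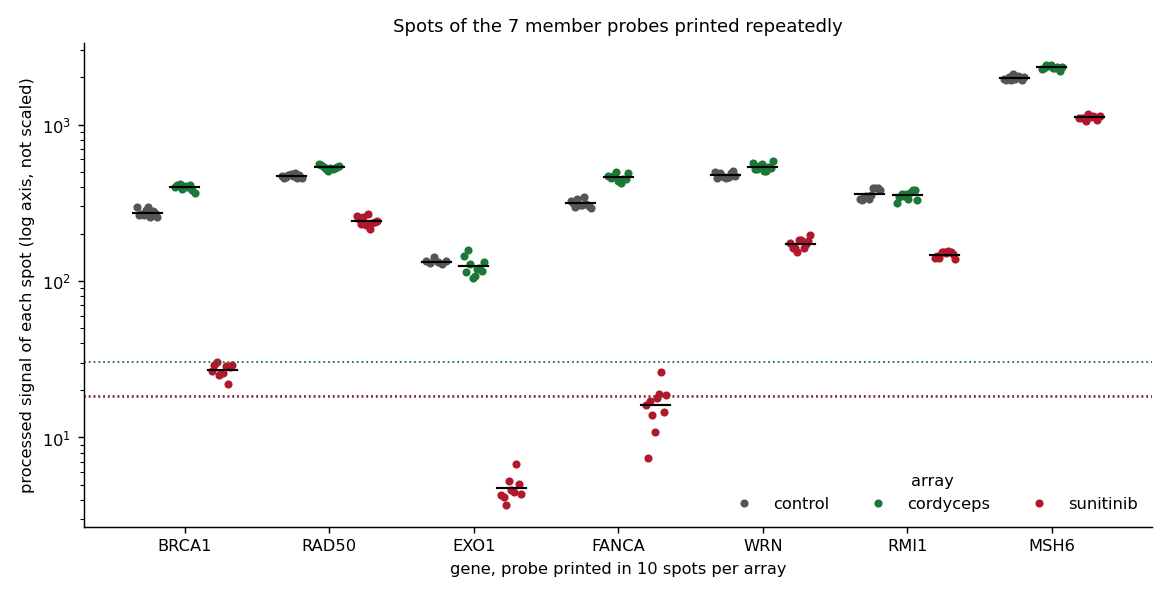
Processed signal of every spot kept for the 7 genes whose probe was printed in 10 spots per array, on a log axis and before scaling between arrays. Colours mark the arrays, black bars are means over spots, and dotted lines are the lowest signals well above background on each array (18.2 control, 30.2 cordyceps, 18.3 sunitinib). BRCA1, FANCA and EXO1 fall by far more on the sunitinib array than RAD50, WRN, RMI1 and MSH6 do, and FANCA and EXO1 reach the background limit.

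For 12 genes the array held several probes. Where more than 1 was measured on both arrays, the log2 ratios of a gene's probes spanned a median of 0.28 with cordyceps (10 genes) and 0.34 with sunitinib (8 genes). The spread was largest for RECQL4, at 0.69 and 1.67. The further FANCA probe detected on the control array gave 238, 306 and 13.1, a reduction of at least 6.16-fold with sunitinib, which had the direction of the brighter probe. The further FANCD2 probe was dim at 56.1 and 72.0 and undetected with sunitinib at 7.75, where the bound was 1.45-fold.

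Other repair genes, grouped by pathway, are set beside the 42 genes as counts and medians. Of 47 other genes of recombination, crosslink repair and checkpoint signalling that could be compared, 5 were more than 2-fold lower with sunitinib and 1 was higher, with a median of -0.04. MND1, known from meiotic recombination, had the highest cordyceps ratio of this list, 1.65, and a sunitinib ratio of -1.83. H2AX, the histone marked at broken ends, had a sunitinib ratio of -1.32. RNF168, a ubiquitin ligase at breaks, was the higher one at 1.00, from dim signals of 24.8 and 23.7.

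In the other repair pathways the medians with sunitinib also lay closer to 0 than the -0.50 of the 42 genes. Non-homologous end joining (10 genes compared) had a median of -0.12, nucleotide excision repair (22) -0.01, base excision repair (19) 0.04, translesion synthesis (15) -0.12 and the other mismatch repair genes (5) -0.17. None of the genes of these 5 lists was more than 2-fold lower. MAD2L2 (1.16), a subunit of translesion polymerase zeta, and NHEJ1, an end-joining factor, were more than 2-fold higher. NHEJ1 gave 12.3 on the control array, not well above background, and 125 on the sunitinib array, at least 14.4-fold higher. With cordyceps the medians of the same lists were -0.03, 0.04, 0.21, -0.06 and 0.07, and none of their genes was more than 2-fold apart. These differences between lists are descriptions without a test.

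Proliferation markers moved on the same arrays as the 42 genes. With sunitinib 11 of 19 were more than 2-fold lower and the median log2 ratio was -1.19, against -0.50 for the repair and checkpoint genes. Before scaling, their summed signal was 25228 on the control array, 23275 on the cordyceps array and 7716 on the sunitinib array, which was the dimmest array. CDK1, the kinase that drives entry into mitosis, gave 572, 1051 and 18.7, the last not well above background. Its cordyceps ratio was 1.13 and its reduction with sunitinib was 14.5-fold as a point estimate. MKI67 was at least 9.73-fold lower and AURKA had a ratio of -2.76 with sunitinib. The replication helicase subunit MCM2 had a sunitinib ratio of 0.70, the highest of this list among genes measured on both arrays. CDC6 was the 1 marker more than 2-fold higher with sunitinib, by at least 2.59-fold. Its signals were dim, at 14.3 (not well above background) on the control array and 22.4 on the sunitinib array. With cordyceps the list had a median of 0.19, with 2 of 18 genes more than 2-fold higher, and the cyclin CCNE2 was lowest at -0.59. Genes activated by p53 had medians of 0.21 with cordyceps and 0.61 with sunitinib. With sunitinib 10 of the 12 were above the control array and 2 below it, from GADD45A at -1.79 to TP53INP1 at 1.34. The part of proliferation in the ratios of the repair genes was not tested.

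**Figure D4:**
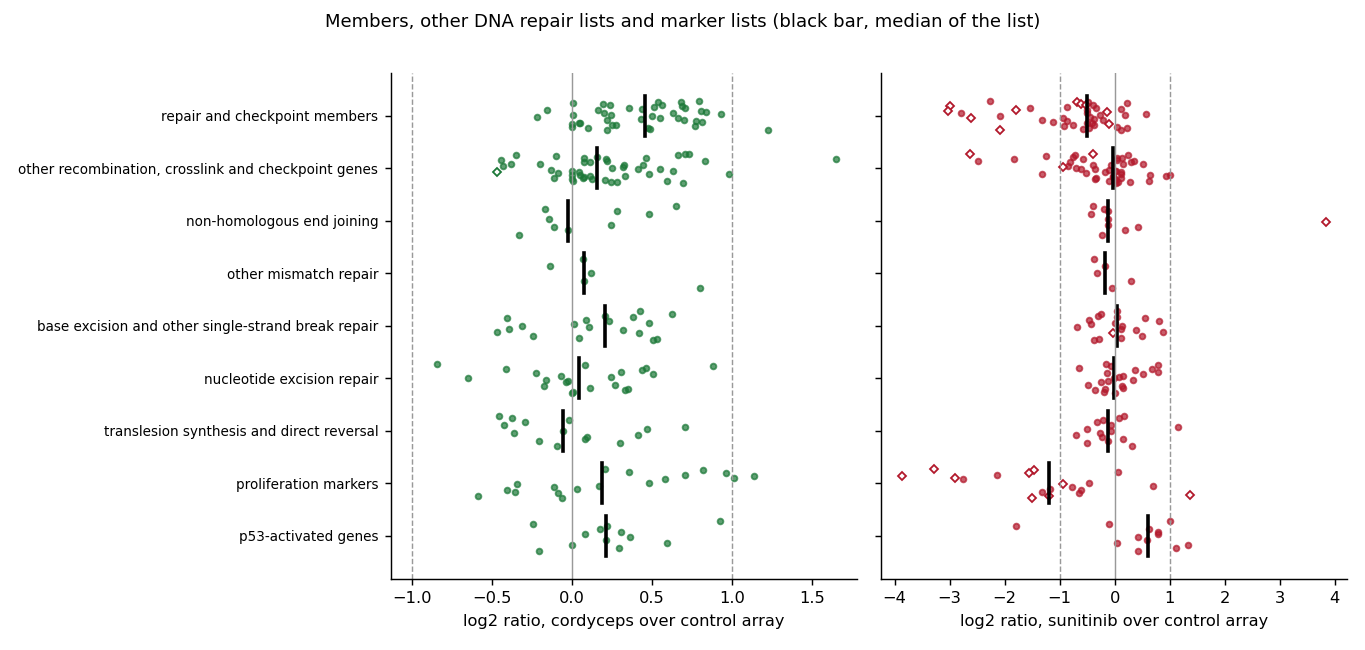
Log2 ratios to the control array of the 42 repair and checkpoint genes and of the other lists, cordyceps on the left and sunitinib on the right. Each point is a gene, open diamonds are bounds, black bars are medians of a list and dashed lines mark 2-fold. With sunitinib the recombination-related lists and the proliferation markers extend furthest to the left, with medians of -0.50 for the 42 genes, -0.04 for other recombination genes and -1.19 for proliferation markers.

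How far the genes stood from the control array depended on the scale between arrays, since the sunitinib array was the dimmest. Before scaling, all 42 signals were lower on the sunitinib array than on the control array, and 25 of 42 were higher on the cordyceps array. All genes were shifted too, with unscaled medians of -1.06 with sunitinib and -0.24 with cordyceps. Without scaling, 53.7% of all genes were more than 2-fold lower with sunitinib. Scaling to the median of all probes moved the median of all genes to 0.18 with cordyceps and -0.31 with sunitinib. Under that scaling 1 gene, FANCE, remained above the control array with sunitinib, so the small positive ratios of MSH6, PALB2, FANCG, RAD50, XRCC1 and TP53BP1 changed sign. None remained below it with cordyceps, so the negative ratios of FANCL, NBN and TP53BP1 also changed sign. With the normexp correction 2 of the 42 genes were above the control array with sunitinib and 35 were below it. The distance between the median of the 42 genes and the median of all genes was steadier. It ran from 0.32 to 0.52 with cordyceps and from -0.90 to -0.46 with sunitinib over the 11 settings plotted.

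**Figure D5:**
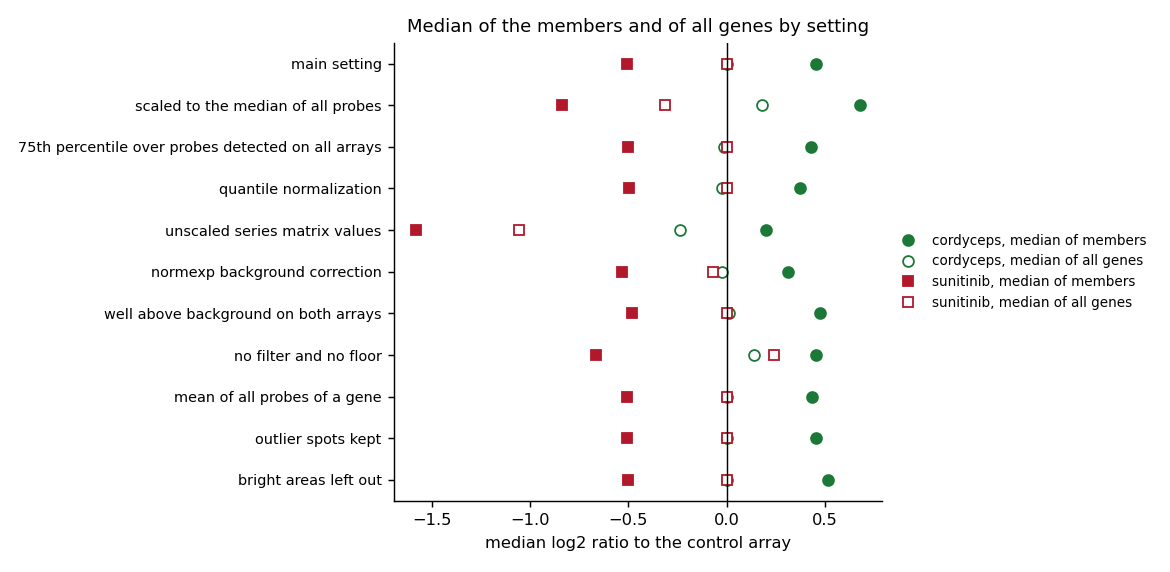
Median log2 ratio to the control array of the repair and checkpoint genes (filled) and of all genes compared (open) under the main setting and each alternative, with circles for cordyceps and squares for sunitinib. The filled circle lies right of the open circle and the filled square left of the open square in every setting plotted, while both move together when the scale between arrays changes.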

How the data were processed

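RNA from 3 cultures of TK-10 cells was measured on 3 single-colour arrays. The authors deposited, per array, scanner output whose unit is intensity on a linear scale, made with Feature Extraction 11.5.1.1 (header build hg19). Its processed signal is background-subtracted intensity. They also deposited a value table, which equalled the mean processed signal of a probe's spots to within 0.01% for 99.87% to 99.92% of probes. It is on a linear scale, neither centred nor scaled, with array medians of 14.4, 10.3 and 8.58.

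Groups came from the sample labels. The study's methods describe ratios of 2 colours and a significance analysis, which need other arrays and replicates. From those methods the 2-fold limit alone was used. Control spots and outlier spots (63 to 121 per array) were left out, the remaining signals were averaged per probe, divided by the 75th percentile of their array and put on a log2 scale. Probes were named by accession through RefSeq (53.4% of 58201 probes), and the probe brightest over both arrays stood for a gene. A gene was compared when either array showed it well above background. A dim side was raised to the lowest signal among detected probes of its array, or kept if higher, and the ratio is then a bound. Where the dim signal was kept, as for BLM and CDK1 with sunitinib, the ratio is a point estimate. It is still counted and drawn among the bounds. Where the bound was not above 1 no ratio is given, and the gene counts as 0 in medians.

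The 42 genes, the other lists and the alternatives were chosen with earlier results of these data known. Every one of the 42 genes is named, and from other lists the highest and lowest genes or those past 2-fold were eligible. NHEJ1, H2AX, CDK1, CDC6 and MKI67 were named after their values were seen. The scripts were tested on simulated data. Python 3.11.15, pandas 2.3.3, numpy 2.4.6 and, for normexp, R 4.3.3 with limma 3.58.1 were used. Alternatives were other scalings, background correction, filters, probe rules and spot rules.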

Additional observations from a re-analysis of the deposited data

How the results depend on the processing

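The number of genes past 2-fold moved with the scale between arrays. With cordyceps 1 gene was more than 2-fold higher (2.99% of all genes were). It was 6 when arrays were scaled to the median of all probes (5.05% of all genes) and 0 without scaling (1.85%). The median log2 ratio of 0.46 became 0.68 and 0.20. With sunitinib 11 genes were more than 2-fold lower (6.53% of all genes were). It was 17 with median scaling (13.0% of all genes) and 36 without scaling (53.7%). It was 6 when a gene had to be well above background on both arrays (5.79%), which leaves out the bounds. The median of -0.50 became -0.84 with median scaling and -1.58 without scaling. Among all genes, those higher were 52.0% of the genes past 2-fold with cordyceps, 77.0% with median scaling, 24.8% without scaling and 62.7% without a filter. With sunitinib the share was 49.9%, and 21.5%, 1.98% and 80.4% under the same settings, and 28.2% with normexp background correction. Normexp moved 26 of 42 sunitinib ratios by more than their error and left 8 genes more than 2-fold lower (5.65% of all genes were). No median turned its direction in any alternative run. BLM, BRCA1, FANCA, FANCD2, FANCI, RAD54L and XRCC3 were more than 2-fold lower with sunitinib in every alternative that gave them a value, EME1 and RECQL4 in 9 of 10, and EXO1 and POLQ in 8 of 9. No paired analysis was possible because each condition had 1 array. Low signal limits the bounds: a gene dim on the control array cannot show a large reduction.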
